A study of Homo sapiens with 23 samples.

Results

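The semaphorin, ephrin, slit and netrin families of axon guidance genes were examined in thalamus organoids (ThOs) from a c-JUN knockout study. Members were the genes whose symbols begin with SEMA, PLXN, NRP, EPHA, EPHB, EFNA, EFNB, SLIT, ROBO, NTN, UNC5, FLRT or DRAXIN, with SEMA6A left out by the rule. The rule used names and no expression value. It matched 56 of the 9497 genes listed for every library. Of these, 52 belong to the guidance families, 28 as ligands and 24 as receptors. The other 4, SLITRK1, SLITRK5, SLITRK6 and UNC50, share only the letters of the rule and were counted apart.

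Growth cones steer by surface and secreted cues. Semaphorins act through plexins and neuropilins, slits through robo receptors, and netrins through DCC and UNC5 receptors, while draxin binds netrin and DCC, and FLRT proteins bind UNC5. Ephrins and Eph receptors are both held in membranes and can signal in each other's cells on contact. In the embryo these systems help thalamic axons leave the diencephalon and sort on their way to the cortex.

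ThOs are cultures of human pluripotent cells patterned towards thalamus, here from the H1 embryonic stem cell line. The WT group was unedited, the KO group carried a CRISPR/Cas9 knockout of c-JUN (gene JUN, whose protein is part of the AP-1 transcription factor), and the OE group was the knockout with c-JUN expressed again from a doxycycline-inducible (tet-on) system. Each genotype was sampled at day 25 and day 30, with 2 libraries a group, 12 in all, and 3 ThOs pooled in each library. The study made more than 1 knockout clone, and the labels do not say which clone a library came from, nor whether replicate libraries came from separate differentiations, so p-values measure only the spread between these libraries. Values are a normalized expression score in whole numbers, of unknown depth, and they are compared within a gene and not between genes.

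JUN itself was higher in the libraries labelled KO than in those labelled WT, at 196 to 353 against 128 to 162 (two-sided exact permutation p = 0.0286, the smallest p that 4 against 4 allows), and OE did not differ from KO detectably (p = 0.886, same exact test). JUN RNA in these libraries therefore did not separate the genotypes as their labels would, c-JUN protein was not measured here, and KO and OE below name the libraries by their labels. The KO libraries were the most variable. Between the 2 KO libraries of a day, 17.4% of all genes at day 25 and 21.5% at day 30 differed at least 2-fold, against 1.75% to 4.45% in the WT and OE groups. KO day 30 replicate 2 held the lowest value of 16 of the 56 members and of 23.0% of all genes, and KO day 25 replicate 1 the highest of 14 members and of 14.4% of all genes. Of a list of 11 thalamic markers, TCF7L2, LHX9, NTNG1 (itself a member), PROX1 and IRX3 were among the genes analysed. GBX2, LHX2, OLIG3, FOXP2, DBX1 and IRX1 were not, so thalamic identity was checked only in part. Of the 5 analysed, 0 passed the threshold given next in any comparison of genotypes at 1 day or over both.

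A gene is said to pass when its change was at least 2-fold with an unadjusted limma p under 0.05, and to be called when the Benjamini-Hochberg adjusted p over all 9497 genes was also under 0.05. Members under an unadjusted p of 0.05 at any fold change are also counted. The share of all genes under that p alone was not counted, so those counts have no reference. Fold changes are log2 differences of log2(value + 1). In bulk RNA, fewer cells of a type and less RNA per cell cannot be told apart.

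The first comparison set the OE label against the KO label and was designed to show what returns with c-JUN, although JUN RNA did not differ detectably between these groups. Over both days, 7 of 56 members (12.5%) were called, against 2.22% of all genes. The ligands SLIT1, EFNB1 and DRAXIN and the receptors EPHA3 and EPHB2 rose, while the ligand SEMA3B and the receptor EPHA7 fell. The change was 2.1-fold for EFNB1 and 4.3-fold for SLIT1.

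SLIT1, a secreted repellent for robo-bearing axons (ENSG00000187122, chr10:96998038-97185959, minus strand), stood at 387 and 192 in OE at day 25 and at 374 and 355 in OE at day 30. The KO libraries read 130 and 68 at day 25 and 86 and 36 at day 30, so every OE library lay above every KO library. Over both days OE averaged 327 ± 91 (SD, n = 4) and KO 80 ± 39.2 (SD, n = 4), a log2 difference of 2.11 (SE 0.31, limma adjusted p = 0.00983). WT lay between them, at 158 and 168 on day 25 and 158 and 206 on day 30.

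DRAXIN, a secreted cue that repels forebrain commissural axons (chr1:11691710-11725857, plus strand), was at 608 and 505 in OE and 303 and 132 in KO at day 25. At day 30 it was at 640 and 480 in OE and 366 and 114 in KO. The groups did not overlap on either day, and the log2 difference over both days was 1.45 (SE 0.33, limma adjusted p = 0.0424). WT libraries, at 415 to 501, were also above all 4 KO libraries.

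EFNB1 (ephrin-B1, chrX:68829021-68842160, plus strand), a membrane ligand of EphB receptors, was at 210 and 275 in OE and 70 and 115 in KO at day 25. At day 30 it was at 214 and 204 in OE and 171 and 94 in KO. EPHB2, a receptor of B-class ephrins (chr1:22710839-22921500, plus strand), was at 427 and 732 in OE and 237 and 188 in KO at day 25. Ligand and receptor of the B class were thus both higher in every OE library than in every KO library. EPHB2 was at 396 and 562 in OE and 290 and 197 in KO at day 30. The log2 differences over both days were 1.06 for EFNB1 (SE 0.23, limma adjusted p = 0.0344) and 1.19 for EPHB2 (SE 0.22, limma adjusted p = 0.0212). The other members of the B class were not called: EFNB2, EFNB3, EPHB1, EPHB4 and EPHB6 changed by between -0.61 and 0.14 on the log2 scale.

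The A-class receptors split. EPHA3 (chr3:89107621-89482134, plus strand), a receptor of A-class ephrins, was at 619 and 553 in OE at day 25 against 286 and 346 in KO. At day 30 it was at 1608 and 678 in OE against 325 and 114 in KO, with the OE libraries far apart at that day. WT libraries were at 285 and 398 on day 25 and 240 and 239 on day 30, below every OE library. KO and WT overlapped on each day, with KO against WT changes of -0.10 and -0.31 that did not pass. For OE against KO the log2 difference over both days was 1.66 (SE 0.32, limma adjusted p = 0.027). EPHA7 (chr6:93240020-93419687, minus strand), which takes part in corticothalamic topography, moved the other way. It was at 346 and 808 in OE and 2674 and 926 in KO at day 25, and at 564 and 486 in OE against 2674 and 2672 in KO at day 30. Every OE library was below every KO library, although KO day 25 replicate 2 read only 926, and the log2 difference over both days was -1.96 (SE 0.34, limma adjusted p = 0.0169). EPHA4 changed by 0.04 on the log2 scale over both days (limma adjusted p = 0.927). EPHA6 passed at day 30, at 18 and 25 in OE and 42 and 46 in KO.

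SEMA3B, a secreted class 3 semaphorin that signals through neuropilins (chr3:50267558-50277546, plus strand), was at 34 and 26 in OE and 164 and 192 in KO at day 25. At day 30 it was at 72 and 26 in OE and 106 and 181 in KO. It fell by 2.09 on the log2 scale over both days (SE 0.35, limma adjusted p = 0.0166), with no overlap between the groups. WT lay at 58 to 130.

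**Figure D1:**
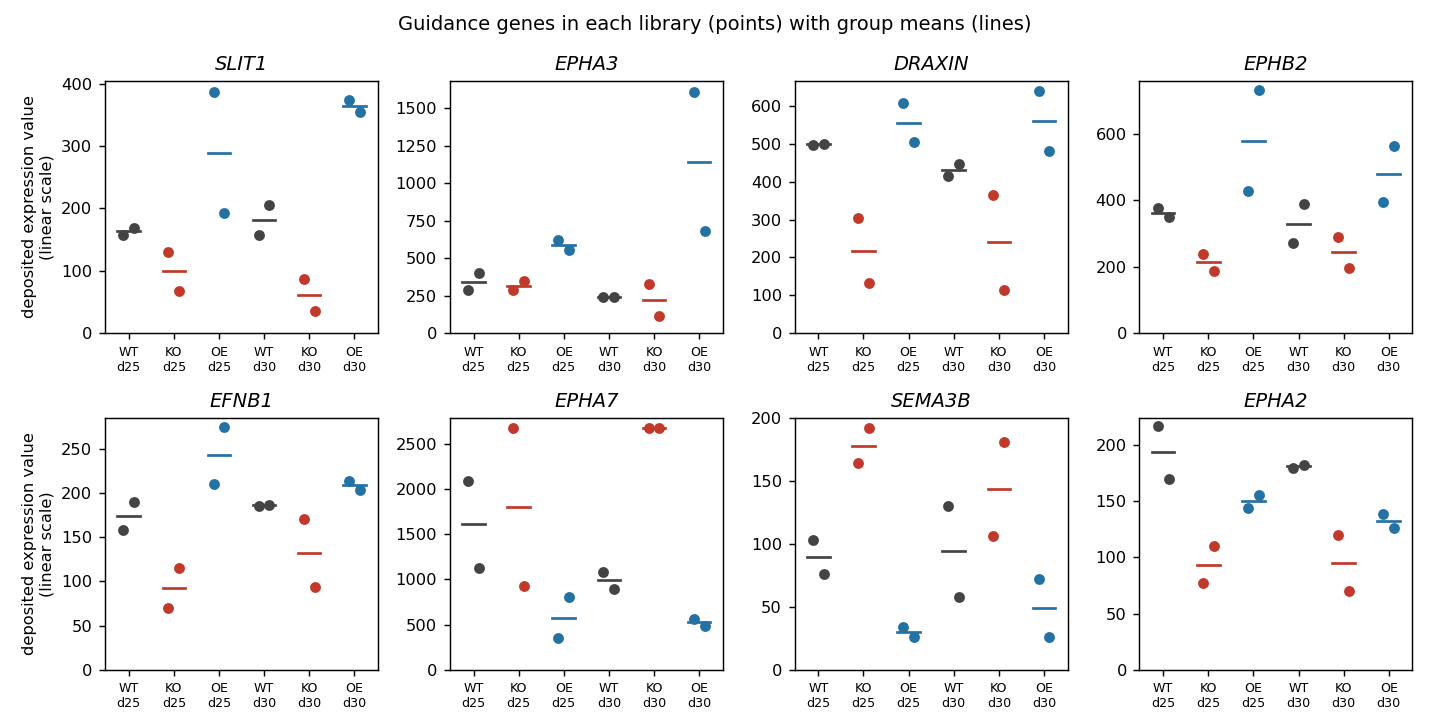
Deposited expression values (linear scale, starting at 0) of the 7 members called in OE against KO over both days, and of EPHA2, in each library. Points are libraries, lines the means of the 2 libraries of a group, and d25 and d30 are day 25 and day 30. SLIT1, EPHA3, DRAXIN, EPHB2 and EFNB1 are higher in every OE library than in every KO library, EPHA7 and SEMA3B lower.

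Another 5 members passed over both days without being called (limma adjusted p from 0.0802 to 0.14). UNC5B, a netrin receptor, was higher by 1.34 on the log2 scale. SEMA3C and SEMA3D, both secreted class 3 semaphorins, differed by -1.32 and -1.06, NTNG2 (netrin-G2, a membrane-anchored relative of netrins) by -1.36 and PLXNA4, a class A plexin, by -1.05. The size of the SEMA3D change rested on 1 library. SEMA3D read 139 and 36 in KO at day 25 against 28 and 32 in OE, and 54 and 58 at day 30 against 31 and 28. Every KO library lay above every OE library, but without KO day 25 replicate 1 the change over both days was -0.58. NTNG2 moved to -0.82 without that library, and PLXNA4 to -0.69 without KO day 30 replicate 2. In all, 12 of 56 members (21.4%) passed, against 4.98% of all genes. In 12 of 56 members (21.4%) the 4 OE libraries did not overlap the 4 KO libraries, against 9.68% of all genes.

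At single days no member was called in OE against KO (0 of 56, against 0.274% of all genes at day 25 and 0.0842% at day 30, limma). At day 25, 11 members (19.6%) passed, against 8.57% of all genes, and 18 were under an unadjusted p of 0.05 at any fold change. At day 30, 10 members (17.9%) passed, against 5.38%, and 15 were under that p. SLIT1, EPHA7, SEMA3B and DRAXIN passed on both days. Among those that passed at day 25 and not at day 30 were SEMA5A, SEMA3F, FLRT2 and SLITRK1. Whether their change differed between the days was not tested. SEMA5A, a transmembrane semaphorin, was at 37 and 34 in OE and 75 and 96 in KO at day 25. SEMA3F, a neuropilin ligand, read 101 and 82 against 47 and 43, a difference just over 2-fold. FLRT2, a membrane protein that binds UNC5 receptors, read 218 and 101 in OE against 33 and 68 in KO at day 25 and 28 and 86 against 60 and 54 at day 30, so the day 30 groups overlapped. PLXNC1, the receptor of SEMA7A, passed at day 30, at 199 and 170 in OE against 290 and 486 in KO.

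The calls depended on the fit and on single libraries, for the members and for all genes. The 7 called members over both days became 0 when only the KO and OE libraries were fitted and 1 with library weights, while the 2.22% of all genes became 0.116% and 0.432%. Leaving out KO day 30 replicate 2 gave 1 member (0.653% of all genes), and leaving out the second OE library of day 30 also gave 1 (0.274%). The count was 2 when either 1 of the OE libraries of day 25 was left out (0.442% without replicate 1 and 0.421% without replicate 2) and 4 without OE day 30 replicate 1 (1.71%). They became 15, and the share of all genes 10.2%, when KO day 30 replicate 1 was left out. At day 30 alone, the 10 members past the threshold became 22 without KO replicate 1 (22.1% of all genes), 4 without KO replicate 2 (1.48%) and 6 without OE replicate 2 (2.83%). SLIT1 was called in 15 of 17 alternative fits (limma adjusted p from 0.000924 to 0.0585), EPHA7 and EPHB2 in 12 each, EPHA3 and SEMA3B in 11 each, DRAXIN in 8 and EFNB1 in 7.

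Progenitor and roof plate markers moved with this comparison. Over both days, 3 of the 9 progenitor markers analysed passed higher in OE than in KO and 0 lower, and the sum of their values was 7615 to 8187 in OE and 4504 to 6543 in KO at day 25. Of 7 roof plate markers, 4 passed lower and 1 higher, with sums of 1466 to 2314 in OE and 2627 to 2761 in KO at day 25. At day 30 the sums were 7515 to 7551 in OE and 6197 to 7263 in KO for progenitors, and 1044 to 1500 in OE and 1609 to 2348 in KO for the roof plate. Of 12 neuron markers, 1 passed higher and 0 lower, with sums of 9948 to 10375 in OE and 9088 to 11978 in KO at day 25. The part of these cell types in the members' changes was not tested. Of 7 choroid plexus markers 1 passed lower, with sums that overlapped on day 25 (2690 to 6670 in OE, 3395 to 8629 in KO), and of 2 mesenchymal genes 1 passed lower, with sums of 154 to 265 in OE and 448 to 980 in KO at day 25. At day 30 the OE and KO sums overlapped for mesenchymal genes (128 to 318 and 261 to 448), neuron markers (8881 to 12591 and 11059 to 11300) and choroid plexus markers (4863 to 5171 and 3263 to 4877).

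The 4 called members with the largest changes are shown by the 150 bases before their start site, to let the reader see the promoters of genes that rose (SLIT1, EPHA3) and fell (SEMA3B, EPHA7). Sequences are from RefSeq on GRCh38.p14, read 5′ to 3′ on the gene's strand, with CG dinucleotides in capitals. The stretches are chr10:97185960-97186109 on the minus strand, chr3:89107471-89107620 on the plus strand, chr3:50272969-50273118 on the plus strand and chr6:93419560-93419709 on the minus strand. The start sites of SEMA3B and EPHA7 lie inside the intervals listed for these genes.
SLIT1: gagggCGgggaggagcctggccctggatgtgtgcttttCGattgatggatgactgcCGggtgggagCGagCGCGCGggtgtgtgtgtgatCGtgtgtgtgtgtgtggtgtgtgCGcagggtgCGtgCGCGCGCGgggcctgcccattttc
EPHA3: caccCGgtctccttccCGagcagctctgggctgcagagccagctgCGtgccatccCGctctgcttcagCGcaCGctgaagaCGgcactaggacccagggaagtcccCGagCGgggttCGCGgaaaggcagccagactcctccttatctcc
SEMA3B: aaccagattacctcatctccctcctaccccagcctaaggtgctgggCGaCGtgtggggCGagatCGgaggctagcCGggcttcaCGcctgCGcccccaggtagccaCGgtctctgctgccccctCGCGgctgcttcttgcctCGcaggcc
EPHA7: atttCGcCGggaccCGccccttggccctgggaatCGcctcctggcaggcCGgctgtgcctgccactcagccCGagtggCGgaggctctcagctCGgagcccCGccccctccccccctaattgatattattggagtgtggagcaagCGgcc
All 4 stretches are rich in G and C, with 66% to 68% of bases and 10 to 14 CG dinucleotides each. Over the 300 bases from 250 before to 50 after the start site, the median content of G and C was 64.7% in the 49 members with a promoter entry and 65.7% in the 7817 listed genes with one. The AP-1 site TGACTCA, searched on both strands, was in 1 of the 49 members (2.04%), 2.39% of listed genes and 4.92% of the 27305 promoters of the table. None of the 7 called members held these letters in this window. The match was in SLITRK6, a neuronal membrane protein that the rule caught by its letters, 20 bases before the start site. This start site lies inside the interval listed for SLITRK6 (chr13:85792790-85806683). Its last 60 bases before the start (chr13:85799420-85799479, minus strand) are given with the site in capitals, read on the other strand.
SLITRK6: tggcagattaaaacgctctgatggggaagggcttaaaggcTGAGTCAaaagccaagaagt
SLITRK6 did not pass in any comparison of genotypes, at 38 and 44 in KO and 68 and 62 in WT at day 25.

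Ligands were compared with receptors by family. Of 73 protein-coding RefSeq genes of these families, SEMA6A left out, 21 were not among the genes analysed. Those analysed were 15 of 19 semaphorins, 2 of 5 ephrin-A ligands, 5 of 9 EphA receptors, 2 of 4 robos and 3 of 4 UNC5 receptors. Family medians here and below therefore cover the analysed genes and not whole families. In OE against KO over both days, the 28 ligands had a median log2 difference of -0.28 and the 24 receptors 0.09, against 0.01 for all genes. Of the ligands 3 were called higher and 1 lower, and of the receptors 2 higher and 1 lower, against 1.05% of all genes called higher and 1.17% lower. The 15 semaphorins had a median of -0.32, with 11 below 0 and 4 above, whereas their 10 plexin and neuropilin receptors had a median of 0.16, with 4 below 0. Slit ligands were uneven, with SLIT1 at 2.11, SLIT3 at -0.30 and SLIT2 at -0.38, while the receptors ROBO1 and ROBO2 changed by 0.49 and -0.36 and were not called. Netrin-G and draxin ligands had a median of -0.13 and the 3 UNC5 receptors 0.29. The netrins NTN1, NTN3, NTN4 and NTN5 were not among the genes analysed. These sets were therefore matched by family name and not by binding. Ephrin-A ligands had a median of -0.29 and EphA receptors 0.04, ephrin-B ligands 0.14 and EphB receptors -0.13.

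**Figure D2:**
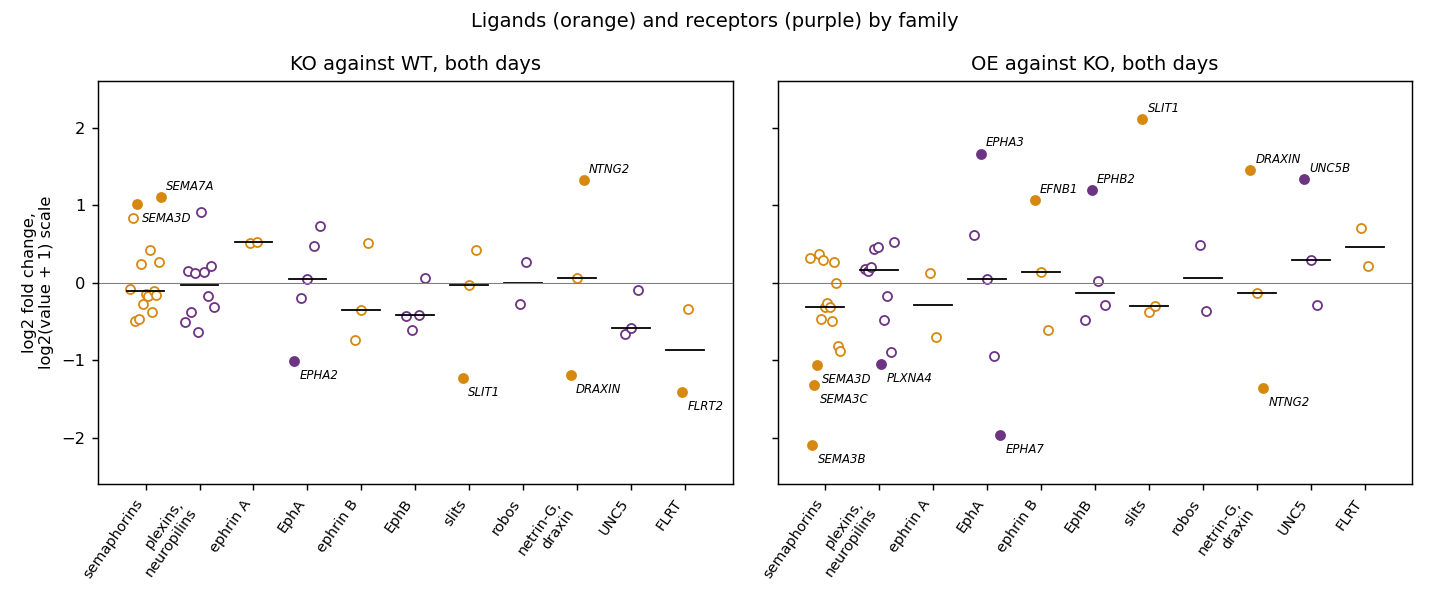
Log2 fold changes, on the log2(value + 1) scale, of each ligand (orange) and receptor (purple) by family, for KO against WT and OE against KO over both days. Each point is a gene, filled and named where it passed an unadjusted limma p under 0.05 and 2-fold, and black bars are family medians. Named genes stand apart from family medians that lie between -0.88 and 0.52.

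The next comparison set the KO label against the WT label and was designed to show the loss of c-JUN, although JUN RNA was higher in KO. Over both days 7 of 56 members (12.5%) passed, against 2.08% of all genes, and 0 were called by limma, against 0.0211% (16 members were under an unadjusted p of 0.05). Lower in KO were SLIT1, DRAXIN, FLRT2 and EPHA2 (1.01% of all genes passed lower), and higher were SEMA7A, NTNG2 and SEMA3D (1.07% passed higher), with limma adjusted p from 0.13 to 0.235. The libraries did not overlap in 7 of 56 members (12.5%), against 5.88% of all genes.

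EPHA2, an Eph receptor of epithelial and progenitor cells (chr1:16124337-16156069, minus strand), had the lowest adjusted p of the members. It was at 217 and 170 in WT and 77 and 110 in KO at day 25, and at 180 and 182 in WT and 120 and 70 in KO at day 30. All 4 KO libraries lay below all 4 WT libraries, and the log2 difference was -1.01 (SE 0.21, limma adjusted p = 0.13). OE lay between them, at 126 to 156.

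FLRT2 (chr14:85530144-85654428, plus strand) was at 200 and 154 in WT and 33 and 68 in KO at day 25, and at 113 and 109 in WT and 60 and 54 in KO at day 30. The groups did not overlap, and the log2 difference over both days was -1.41 (SE 0.37, limma adjusted p = 0.181). SLIT1 differed by -1.23 (SE 0.31, limma adjusted p = 0.18) and DRAXIN by -1.19 (SE 0.33, limma adjusted p = 0.193), from the values given above. Because the KO libraries are shared with the comparison of OE and KO, the changes of SLIT1 and DRAXIN there are not independent of these.

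SEMA7A, a membrane-anchored semaphorin that acts through PLXNC1 and integrins, was at 34 and 16 in WT and 75 and 58 in KO at day 25. At day 30 it was at 22 and 22 in WT and 28 and 50 in KO, so that over both days the groups overlapped, with a log2 difference of 1.10. NTNG2 was higher by 1.32 but uneven, at 52 and 74 in WT and 290 and 64 in KO at day 25, and 82 and 78 in WT and 154 and 345 in KO at day 30. SEMA3D was higher by 1.02, at 28 to 34 in WT and 36 to 139 in KO. Without KO day 25 replicate 1 the differences were 0.54 for SEMA3D and 0.78 for NTNG2, both below 2-fold.

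At day 25 alone 4 of 56 members passed in KO against WT (5.31% of all genes), SEMA7A higher and FLRT2, EPHA2 and DRAXIN lower. At day 30, 5 passed (2.94% of all genes): NTNG2 and EPHA7 were higher, and SLIT1, DRAXIN and UNC5C lower. EPHA7 was at 1084 and 898 in WT and 2674 and 2672 in KO at day 30, where the KO libraries agreed closely. At day 25 its groups overlapped, at 2094 and 1132 in WT and 2674 and 926 in KO. UNC5C, a netrin receptor for repulsion, read 98 and 94 in WT and 74 and 21 in KO at day 30. No member was called on either day by limma (0.0105% of all genes at day 25, 0% at day 30), and 8 were under an unadjusted p of 0.05 on each. A difference of the KO effect between the days passed in 0 of 56 members (3.99% of all genes) with 0 members under an unadjusted p of 0.05.

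These counts moved with single libraries. Over both days the 7 members became 2 when KO day 30 replicate 2 was left out (1.15% of all genes) and 12 when its partner, replicate 1, was (7.00%). At day 25 the 4 became 7 without KO replicate 1 (10.2% of all genes), 9 without KO replicate 2 (8.08%) and 2 without WT replicate 2 (6.28%). At day 30 the 5 became 14 without KO replicate 1 (18.9%), 3 without KO replicate 2 (0.937%), 2 without WT replicate 1 (2.95%) and 1 without WT replicate 2 (1.18%). Without KO day 30 replicate 2, the day 30 change was -0.23 for DRAXIN and -0.37 for UNC5C, and the change of DRAXIN over both days was -0.77.

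Among families, ligands had a median log2 difference of -0.10 in KO against WT over both days and receptors -0.19, against -0.02 for all genes. The 3 UNC5 receptors were all below 0 over both days, with a median of -0.58, but at day 25 alone 2 were above 0. In KO day 30 replicates 1 and 2, UNC5B was at 136 and 48, UNC5C at 74 and 21 and UNC5D at 50 and 66. The EphB receptors had a median of -0.42, and no member of either family passed over both days. Both ephrin-A ligands were above 0, EFNA3 by 0.51 and EFNA5 by 0.53, neither past the threshold. EFNA5, a repellent ligand of EphA receptors, was at 15 and 90 in KO at day 30 and at 15 to 36 in the other 10 libraries. Progenitor markers were lower and roof plate markers higher in KO at day 25. The progenitor sum was 4504 to 6543 in KO and 7730 to 14021 in WT, with 0 of 9 higher and 4 lower, and the roof plate sum 2627 to 2761 in KO and 1549 to 1661 in WT, with 2 of 7 higher and 1 lower. At day 30 the roof plate sum was 1609 to 2348 in KO and 1063 to 1380 in WT, with 4 higher and 1 lower, and the progenitor sum 6197 to 7263 in KO and 6834 to 7312 in WT. The mesenchymal sum was 448 to 980 in KO and 320 to 382 in WT at day 25 and 261 to 448 against 225 to 318 at day 30, and over both days 1 of 2 mesenchymal and 1 of 7 choroid plexus markers passed higher and 1 of 12 neuron markers lower. The part of these cell types in the members' differences was not tested.

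OE was also set against WT, the unedited ThOs. Over both days 4 of 56 members passed (7.14%), against 1.19% of all genes, and 0 were called by limma, against 0.158% (13 members were under an unadjusted p of 0.05). SEMA3C, a class 3 semaphorin that can attract axons, was at 268 and 88 in OE and 460 and 428 in WT at day 25, and at 228 and 96 in OE and 767 and 528 in WT at day 30. The groups did not overlap, and the log2 difference was -1.81 (SE 0.38, limma adjusted p = 0.118). EPHA3 was higher in OE by 1.46 (SE 0.32, limma adjusted p = 0.144), while EPHA7 differed by -1.23 and SEMA3B by -1.26. At day 25 alone 4 members passed (1.57% of all genes), SEMA5A, EPHA7, SEMA3B and SEMA3C, all lower in OE. At day 30, 5 passed (1.44%), EPHA3 and SLIT1 higher and SEMA3C, EPHB1 and FLRT2 lower. None was called on either day (limma, 0% and 0.0316% of all genes), with 5 and 8 members under an unadjusted p of 0.05. SLIT1 was at 374 and 355 in OE and 158 and 206 in WT at day 30, a log2 difference of 1.01 (SE 0.44, limma adjusted p = 1).

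**Figure D3:**
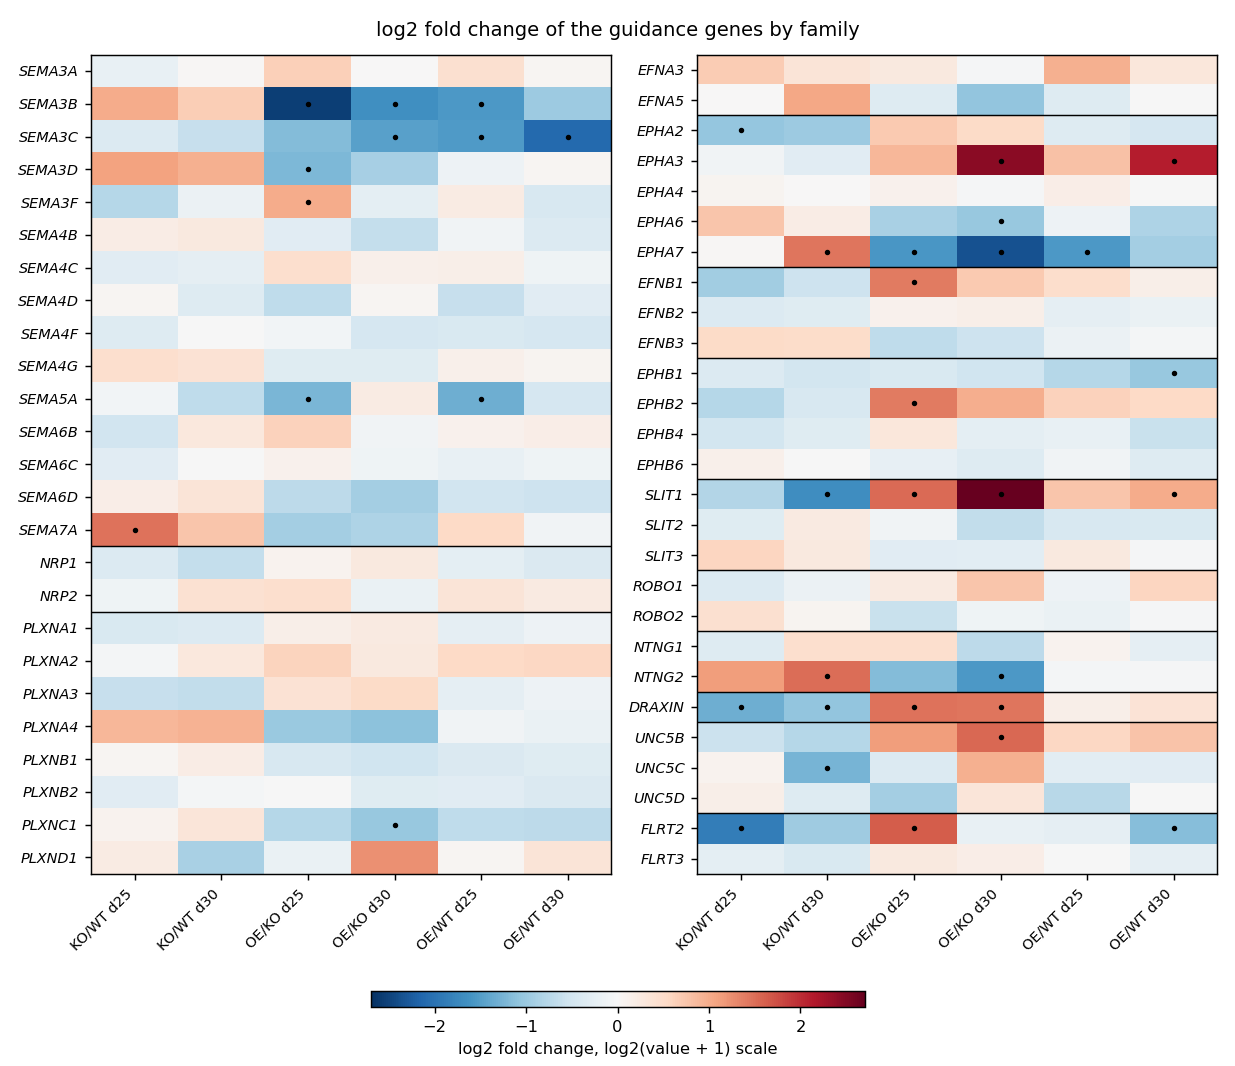
Log2 fold changes (red higher, blue lower, on the log2(value + 1) scale) of the 52 guidance genes for the 3 pairs of genotypes (KO/WT, OE/KO, OE/WT) on day 25 (d25) and day 30 (d30), ordered by family with black lines between families. Black dots mark an unadjusted limma p under 0.05 with a 2-fold change. The darkest cells are SLIT1 and EPHA3, 2.69 and 2.43 higher in OE than in KO at day 30, and SEMA3B at -2.54 at day 25.

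The days were compared next, and among the slit ligands SLIT3 passed. SLIT3 was at 136 and 188 in WT, 222 and 258 in KO and 268 and 139 in OE at day 25, and at 94 and 89 in WT, 140 and 86 in KO and 93 and 86 in OE at day 30. It was lower at day 30 within each genotype, with a log2 difference of -1.01 on the mean of genotypes (SE 0.20, limma adjusted p = 0.193), and was the only member of 56 to pass, against 0.411% of all genes. SLIT2 was at 1159 and 926 in WT, 872 and 786 in KO and 973 and 610 in OE at day 25, and at 547 and 501, 651 and 597, and 525 and 294 at day 30, a difference of -0.79 (SE 0.16, limma adjusted p = 0.193). For both genes the day 30 libraries of a genotype lay below its day 25 libraries. SLIT2 did not pass, and neither gene was called. The SLIT1 libraries of the days overlapped within each genotype, with log2 differences of 0.15 in WT, -0.74 in KO and 0.42 in OE. ROBO1 and ROBO2 did not pass. The count on the mean of genotypes was 0 without any 1 of WT day 25 replicate 2, WT day 30 replicate 2, KO day 25 replicate 2, KO day 30 replicate 2, OE day 25 replicate 1 and OE day 30 replicate 2, and it was 2 without KO day 30 replicate 1.

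**Figure D4:**
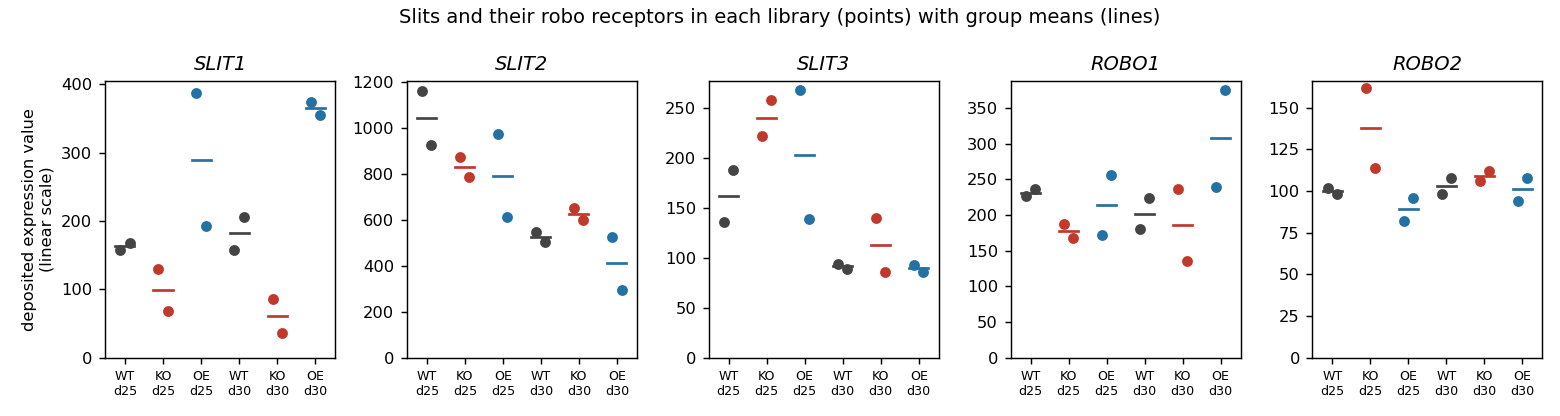
Deposited expression values (linear scale, starting at 0) of the 3 slits and their receptors ROBO1 and ROBO2 in each library. Points are libraries, lines the means of 2 libraries. SLIT2 lies between 610 and 1159 on day 25 and between 294 and 651 on day 30, SLIT3 between 136 and 268, then 86 and 140, while SLIT1 differs by genotype.

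In KO alone 4 members passed as lower at day 30 (SLIT3, UNC5C, UNC5D and SEMA4D), against 5.42% of all genes. In OE 2 passed (SLIT3 and FLRT2, 0.727% of all genes) and in WT 0 of 56 (1.17%), with 2 members under an unadjusted p of 0.05 there (limma).

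The 32 members not named by the rule for named genes had values between 11 and 1159 and changed by -0.91 to 1.23 on the log2 scale across KO against WT and OE against KO, with a lowest limma adjusted p of 0.0527. They include most plexins, such as PLXNB2, which lay between 449 and 764 over the 12 libraries, as well as NTNG1, SLIT2, SLIT3 and ROBO2. NRP1, the neuropilin that SEMA3A binds, was at 100 and 80 in WT and 74 and 65 in KO at day 25 and at 45 and 68 in WT and 64 and 19 in KO at day 30, a log2 difference of -0.50 over both days with overlapping groups.

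Guidance partners outside the families were examined as a list of 86 genes (DCC, repulsive guidance molecules, adhesion molecules, cytoskeletal effectors and others), 78 of them analysed. In OE against KO over both days 5 passed higher and 1 lower, of which 4 and 1 were called. Of all genes 4.98% passed in either direction and 2.22% were called. Among those called, RGMB, a neogenin ligand, rose by 1.39, CNTN2, an axonal adhesion molecule, by 1.5, and SDC2, a heparan sulfate proteoglycan, fell by 1.01 (limma adjusted p from 0.0121 to 0.0441). In KO against WT over both days 0 passed higher and 2 lower, RGMB at -1.06 among them, and neither was called. Of all genes 2.08% passed there in either direction. The median of the list was 0.08 in OE against KO and -0.06 in KO against WT, close to 0.01 for all genes in the former.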

How the data were processed

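RNA-seq was made from 12 thalamus organoid libraries, each of 3 pooled organoids extracted in TRIzol and prepared with a total RNA kit. The 9 ATAC-seq and 2 CUT&Tag samples were not analysed here. For every library the authors deposited a table with a normalized expression score, rounded to whole numbers, for the same 9497 genes. The normalization is not given in the sources used here. The submitters' processing notes name bcl2fastq, RSEM, Bowtie2 and the build hg19, without roles, whereas 9384 of 9386 matched symbols lie at their RefSeq GRCh38.p14 position, so the positions printed are taken as GRCh38. Read depth is unknown, and only the spread between libraries gives precision.

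The values were put on a log2(value + 1) scale and fitted in R 4.3.3 by limma 3.58.1, with 1 mean for each of 6 groups over all 12 libraries, an intensity trend, 6 residual and 5.29 prior degrees of freedom. P-values are two-sided and adjusted (Benjamini-Hochberg) across the 9497 genes of each comparison. JUN was compared with an exact permutation test (scipy 1.17.1). The steps were tested on simulated data. Values in every library are given for the 24 members that pass an unadjusted p under 0.05 and 2-fold in KO against WT or OE against KO, at either day or over both, plus the member with the largest KO change of each family without one; slits and partners beyond this rule were named after their values were seen, and some partners that pass are not reported here by name. The members, partners and marker lists were chosen with earlier results of these data known. Lists of neuron, progenitor, thalamus, roof plate, choroid plexus, mesenchyme and telencephalon markers were summed; of the 6 telencephalon markers, 0 were among the genes analysed. Alternatives were pseudocounts of 0.1 and 5, a mean of at least 50, quantile normalization, median centring, library weights, no trend, only the libraries compared, the replicate number as a block, and each library left out.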

Additional observations from a re-analysis of the deposited data

Results flagged for a closer look

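In 4 members the libraries of a comparison did not overlap on either day and the direction turned between the days, which flagged them; the differences between the days were not tested for OE against KO, and for KO against WT the test of the difference across all genes called none of them. UNC5D, a netrin receptor, differed between KO and WT by 0.16 on the log2 scale at day 25 and -0.35 at day 30, so that the day 30 value was lower by a difference of -0.516. SLIT2 differed by -0.32 at day 25 and 0.25 at day 30, a difference of 0.575. In OE against KO, EPHB4, a receptor of ephrin-B2, differed by 0.31 and -0.27, a difference of -0.578, and SEMA4D, a plexin-B ligand, by -0.68 and 0.06, a difference of 0.744. All 8 of these changes were below 2-fold. Lack of overlap on a single day was common, in 41.1% to 53.6% of the 56 members across these comparisons. The share of all genes without overlap on a single day is not reported here, so these shares have no reference. The share of all genes that turn in this way was not counted, so the flags are not a result about these families.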

How the results depend on the processing

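The named changes followed here had all passed in the main fit, so a reversal was unlikely in advance. Every library had a median of 106, so median centring could not move a change. Library sums were also close, at 1788282 to 1798596. With quantile normalization 214 of all genes were called in OE against KO over both days, against 211 in the main fit. Both alternatives were therefore weak checks. Of 879 values of 61 changes of named members under the alternatives, 770 stayed on the same side of the unadjusted threshold, 109 no longer passed and 0 reversed. The 7 members called in OE against KO over both days became 1 with library weights and 0 with only the libraries compared, while the genes called of all 9497 went from 211 to 41 and 11. The members past the threshold in KO against WT became 3 at day 30 with only the libraries compared and 4 over both days with a pseudocount of 5, and SLIT3 no longer passed between the days with that pseudocount (0 members). The causes were not tested. Leaving out 1 library at a time gave 2 to 9, 1 to 14 and 2 to 12 members past the threshold in KO against WT at day 25, day 30 and over both days, and 8 to 13, 4 to 22 and 8 to 16 in OE against KO. It gave 3 to 6 in OE against WT, 0 to 2 between the days, 1 to 15 called in OE against KO over both days, 0 to 1 with a difference of the KO effect between the days, and a JUN difference of 76.5 to 129. A group left with 1 library was taken to vary like the others. Replicate numbers did not pair the libraries, with correlations of deviations from -0.214 to 0.262 over 15 pairs of groups; with the replicate number as a block, 7 members were called in OE against KO over both days. The unknown depth limits what can be said of low genes, and 2 libraries a group limit all comparisons.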

Other observations

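The members were also compared between replicates. Between the 2 OE libraries of day 25, 7 of 56 members (12.5%) were at least 2-fold apart, against 2.15% of all genes, and at day 30 6 of 56 (10.7%), against 3.23%. SEMA3C was at 268 and 88 in OE at day 25 and 228 and 96 at day 30, EPHA7 at 346 and 808 at day 25, and FLRT2 at 218 and 101 at day 25 and 28 and 86 at day 30. In the KO groups 14 of 56 members (25%) and 15 of 56 (26.8%) were as far apart, against 17.4% and 21.5% of all genes, and in the WT groups 3 and 1 members, against 4.45% and 1.75%.

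The netrin-G and draxin genes and the UNC5 receptors, matched by family name and not by binding, parted in 1 library. None of NTN1, NTN3, NTN4 and NTN5 was among the genes analysed, so no balance of netrin and its receptors was measured. The mean log2 value of NTNG1, NTNG2 and DRAXIN minus that of UNC5B, UNC5C and UNC5D, relative to the WT mean of day 25, was 1.91 in KO day 30 replicate 2, 0.71 in KO day 30 replicate 1 and between -0.18 and 0.55 in the other 10 libraries. DCC, the netrin receptor for attraction and a partner outside the families, was at 564 and 609 in WT, 637 and 210 in KO and 808 and 525 in OE at day 25, and at 354 and 476, 293 and 444, and 406 and 564 at day 30.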
